A study of Homo sapiens with 8 samples.

Results

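The genes described here are the aminoacyl-tRNA synthetases, the enzymes that load each tRNA with its amino acid. A fixed list of 35 of them was taken by symbol, 19 whose enzymes work in the cytosol and 16 whose names end in 2 and whose enzymes work in mitochondria, out of 78932 genes counted. All 35 matched 1 Ensembl gene each. They were followed in 8 RNA libraries of HCT116, a human colorectal cancer line, in which NUDT21 carries a dTAG degradation tag. NUDT21 is the RNA-binding subunit of CFIm, a complex that helps to choose poly(A) sites. One group of 4 libraries came from tagged cells treated with DMSO and JTE-607, and the other group of 4 from tagged cells treated with dTAGV1 and JTE-607. dTAGV1 is a small molecule that sends tagged proteins to degradation, DMSO is its solvent, and JTE-607 inhibits CPSF73, the nuclease that cuts pre-mRNA at poly(A) sites. Both groups thus carry the tag and received JTE-607, and a group given neither compound was not analysed here. Doses, times and the number of tagged clones are not given in the sources used here, nor is it stated that replicates came from separate cultures, so that p-values measure the spread between these libraries. Libraries are named below by DMSO or dTAGV1 and their replicate number.

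Each synthetase recognises 1 amino acid and its tRNAs, and EPRS1 joins the glutamate and the proline enzyme in a single protein. Cells keep separate sets for the cytosol and for mitochondria, whose own ribosomes make respiratory chain proteins. GARS1 and KARS1 serve both compartments, and glutamine is put on its mitochondrial tRNA indirectly, through EARS2 and an amidotransferase. In the cytosol, several synthetases sit in a multisynthetase complex held together by the scaffold proteins AIMP1, AIMP2 and EEF1E1. Many cytosolic synthetase genes are known targets of ATF4, the transcription factor of the amino acid and integrated stress response, which binds elements that join a C/EBP site and an ATF site.

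The libraries held 3447842 to 4291256 sense-strand reads in genes. The tagged gene NUDT21 lay at 28.4, 33.5, 34.95 and 31.9 CPM with DMSO and 9.64, 8.76, 4.42 and 10.2 CPM with dTAGV1 (CPM, counts per 1000000 after TMM scaling), so its RNA was lower in every dTAGV1 library (log2 fold change -1.95 ± 0.18, SE). The tag acts on the protein, which was not measured. Of 8 markers of colorectal epithelial cells, 7 had a mean of at least 10 counts, VIL1 was near 0, and their summed level was 1717 to 2015 CPM with DMSO and 1382 to 1481 CPM with dTAGV1. The 7 did not move together, with log2 fold changes of 0.28 for EPCAM and 0.02 for CDH1. KRT8, KRT18, KRT19, CLDN4 and CDX2 ran from -0.65 (KRT19) to -0.21 (CDX2). The 5 leukocyte markers summed to at most 1.37 CPM and the 4 endothelial ones to at most 3.202 CPM. The 4 fibroblast markers summed to 11.2 to 20.8 CPM, with DCN at 0 and COL1A1 alone reaching a mean of 10 counts. Reads that fitted no gene on the sense strand were 32.3% ± 1.55 of the unique alignments in the DMSO group and 36.6% ± 0.687 in the dTAGV1 group (SD, n = 4 each), and the part of this share and of the epithelial sum in the results below was not tested.

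The element bound by ATF4 with a C/EBP partner was looked for first, because ATF4 is known to act on many of these genes through it. TGATGNAA was searched on both strands of the 300 bases from 250 before to 50 after each RefSeq gene start, on GRCh38.p14, with no other motif in the search. Of 16 cytosolic members in the promoter table, 7 (43.8%) had a match, against 1 of 14 mitochondrial members (7.14%) and 1217 of 27305 genes in the table (4.46%). In 6 of the 7 the match read TGATGCAA or its reverse complement TTGCATCA, which 1.08% of all genes in the table had and none of the mitochondrial members. The windows below are given 5′ to 3′ on the strand of the gene, with the match in capitals. Windows of CARS1 and MARS1 end with the match, which crosses the start, and those of TARS1 and NARS1, where it lies after the start, are limited to 30 bases.
AARS1: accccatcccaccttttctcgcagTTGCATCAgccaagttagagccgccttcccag
CARS1: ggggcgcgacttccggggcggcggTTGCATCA
GARS1: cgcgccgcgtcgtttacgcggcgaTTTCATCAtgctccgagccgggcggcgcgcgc
IARS1: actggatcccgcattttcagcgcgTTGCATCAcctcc
MARS1: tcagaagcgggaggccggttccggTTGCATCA
TARS1: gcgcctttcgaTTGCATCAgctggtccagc
NARS1: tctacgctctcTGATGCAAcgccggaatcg
YARS2: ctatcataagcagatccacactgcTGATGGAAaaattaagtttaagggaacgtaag
These windows lie at chr16:70289662-70289717 for AARS1 (minus strand), chr11:3057418-3057449 for CARS1 (minus strand), chr7:30594821-30594876 for GARS1 (plus strand), chr9:92293698-92293734 for IARS1 (minus strand), chr12:57488040-57488071 for MARS1 (plus strand), chr5:33440956-33440985 for TARS1 (plus strand), chr18:57621804-57621833 for NARS1 (minus strand) and chr12:32756063-32756118 for YARS2 (minus strand). The match began 187 bases before the start in AARS1 and 33 before it in GARS1, and between 13 bases before and 14 after the start in CARS1, IARS1, MARS1, TARS1 and NARS1. LARS1, VARS1, YARS1, AARS2 and VARS2 have no entry in that table. A match is a description of letters and not a measured binding site.

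Upon dTAGV1 the synthetase genes moved in both directions, at a share close to that of genes in general. Of the 33 members that passed the filter on low counts, 11 were higher and 9 lower with dTAGV1 (edgeR, quasi-likelihood F test, at a Benjamini-Hochberg threshold of 0.05 over all genes). Of all 12618 genes tested, 57.9% passed this test, 29.4% higher and 28.5% lower. The cytosolic group had 7 higher and 4 lower of 19, which is 57.9%, and the mitochondrial group 4 higher and 5 lower of 14, which is 64.3%, both near the share among all genes. The median log2 fold change was 0.12 for the cytosolic and -0.07 for the mitochondrial members, and 0.01 over all genes. Both medians were unsteady. With 1 library left out, the cytosolic one ran from 0.07 (without DMSO replicate 1) to 0.18 (without dTAGV1 replicate 2). The mitochondrial one ran from -0.17 (without dTAGV1 replicate 2) to -0.01 (without DMSO replicate 2). Library-size scaling gave 0.05 and -0.15, but it shifted the log2 fold changes of all genes by a median of -0.07. Changes were mostly modest: 1 member, MARS2, exceeded 2-fold, or 3.03% of members against 16.6% of all genes. Libraries of the groups did not overlap in CPM for 15 members (45.5%), against 50.9% of all genes. In these bulk libraries, a change in every cell and a change in the share of cells cannot be told apart.

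**Figure D1:**
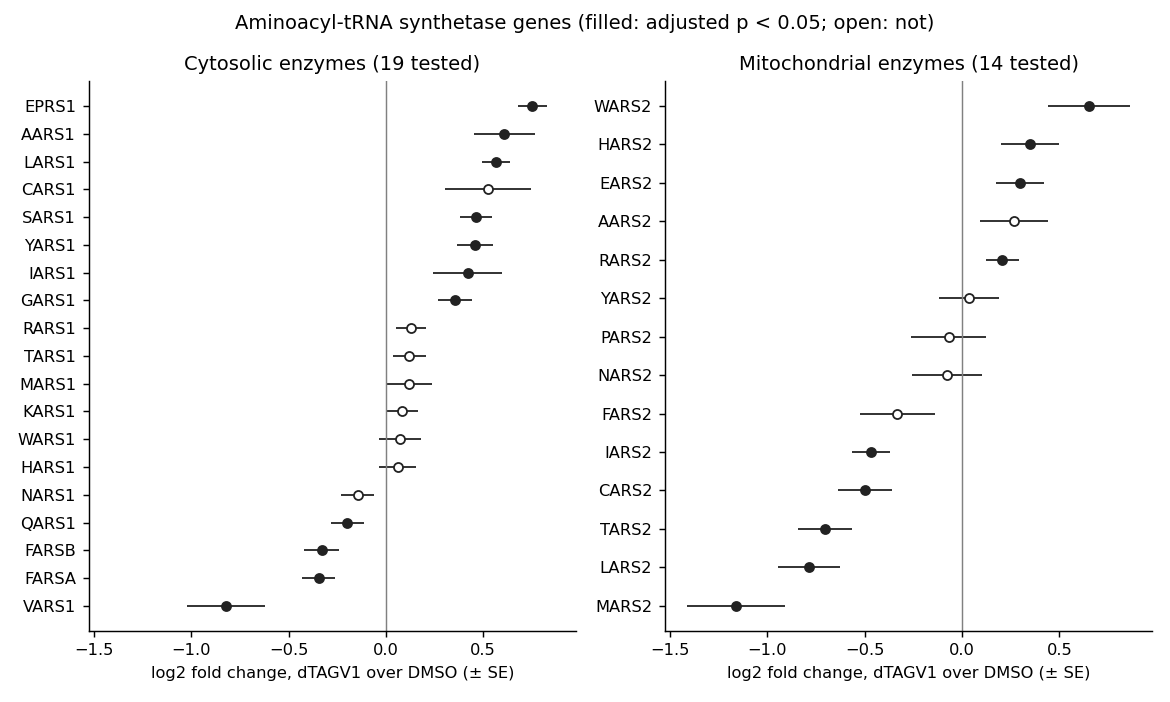
Log2 fold change of each tested synthetase gene, dTAGV1 over DMSO (x axis), with its standard error as a bar, for 19 cytosolic (left) and 14 mitochondrial genes (right); filled points passed the adjusted p of 0.05 and open points did not. EPRS1 is highest at 0.75 and VARS1 lowest at -0.82 on the left, and WARS2 (0.65) and MARS2 (-1.16) are the ends on the right.

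EPRS1, the bifunctional glutamate and proline enzyme, had the highest fold change of the members (ENSG00000136628; chromosome 1, 219968601 to 220046658, minus strand). It lay at 219, 228, 235 and 244 CPM with DMSO and 385, 344, 429 and 402 CPM with dTAGV1. The lowest dTAGV1 library was well above the highest DMSO library, and the log2 fold change was 0.75 ± 0.07 (SE; edgeR, Benjamini-Hochberg adjusted p = 4.60e-09). LARS1, the leucine enzyme and a partner of EPRS1 in the multisynthetase complex (ENSG00000133706; chromosome 5, 146113038 to 146182660, minus strand), stood at 183, 151, 173 and 178 CPM with DMSO and 254, 261, 244 and 254 CPM with dTAGV1. Its dTAGV1 libraries were the tightest of any tested member, with a coefficient of variation of 2.74%, and its log2 fold change was 0.57 ± 0.07 (SE; edgeR, Benjamini-Hochberg adjusted p = 4.35e-07). AARS1, the alanine enzyme (ENSG00000090861; chromosome 16, 70252295 to 70289543, minus strand), was at 117, 98.2, 112 and 87.5 CPM with DMSO and 214, 130.2, 152 and 135 CPM with dTAGV1. All 4 dTAGV1 libraries were above all 4 DMSO libraries, but dTAGV1 replicate 1 stood well above the other 3. Its log2 fold change was 0.61 ± 0.16 (SE; edgeR, Benjamini-Hochberg adjusted p = 0.0063), and without dTAGV1 replicate 1 it was 0.42.

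SARS1, YARS1, GARS1 and IARS1 rose as well. SARS1, which charges serine and selenocysteine tRNAs (ENSG00000031698; chromosome 1, 109213918 to 109238169, plus strand), lay at 172, 178, 179.8 and 179 CPM with DMSO and 277, 213, 261 and 227 CPM with dTAGV1, without overlap. For this gene the log2 fold change was 0.46 ± 0.08 (SE; edgeR, Benjamini-Hochberg adjusted p = 2.32e-05). YARS1, the tyrosine enzyme (ENSG00000134684; chromosome 1, 32775237 to 32818153, minus strand), was at 84.98, 86.6, 77.6 and 83.1 CPM with DMSO and 133, 96.4, 114 and 113 CPM with dTAGV1, with dTAGV1 replicate 1 highest again. On the log2 scale, the fold change was 0.46 ± 0.09 (SE; edgeR, Benjamini-Hochberg adjusted p = 0.000135). GARS1, the glycine enzyme of cytosol and mitochondria (ENSG00000106105; chromosome 7, 30594681 to 30634033, plus strand), had smaller values: it lay at 82.5, 79.3, 87.8 and 77.9 CPM with DMSO and 113, 93.9, 102 and 109.97 CPM with dTAGV1, also without overlap, a log2 fold change of 0.36 ± 0.09 (SE; edgeR, Benjamini-Hochberg adjusted p = 0.000923). IARS1, the isoleucine enzyme of the complex (ENSG00000196305; chromosome 9, 92210207 to 92293756, minus strand), was counted thinly, with 46 to 79 reads a library, and lay at 12.6, 12.5, 13.1 and 15.1 CPM with DMSO and 22.4, 19.9, 17.1 and 12.5 CPM with dTAGV1. The groups overlapped, and its log2 fold change was 0.42 ± 0.18 (SE; edgeR, Benjamini-Hochberg adjusted p = 0.0463). The call was kept in 2 of 15 alternatives, those without DMSO replicate 4 or dTAGV1 replicate 4, and lost with each other library left out. Over the alternatives its adjusted p ranged from 0.00752 to 0.193 (edgeR, limma or DESeq2, Benjamini-Hochberg), and without dTAGV1 replicate 1 the log2 fold change was 0.28.

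**Figure D2:**
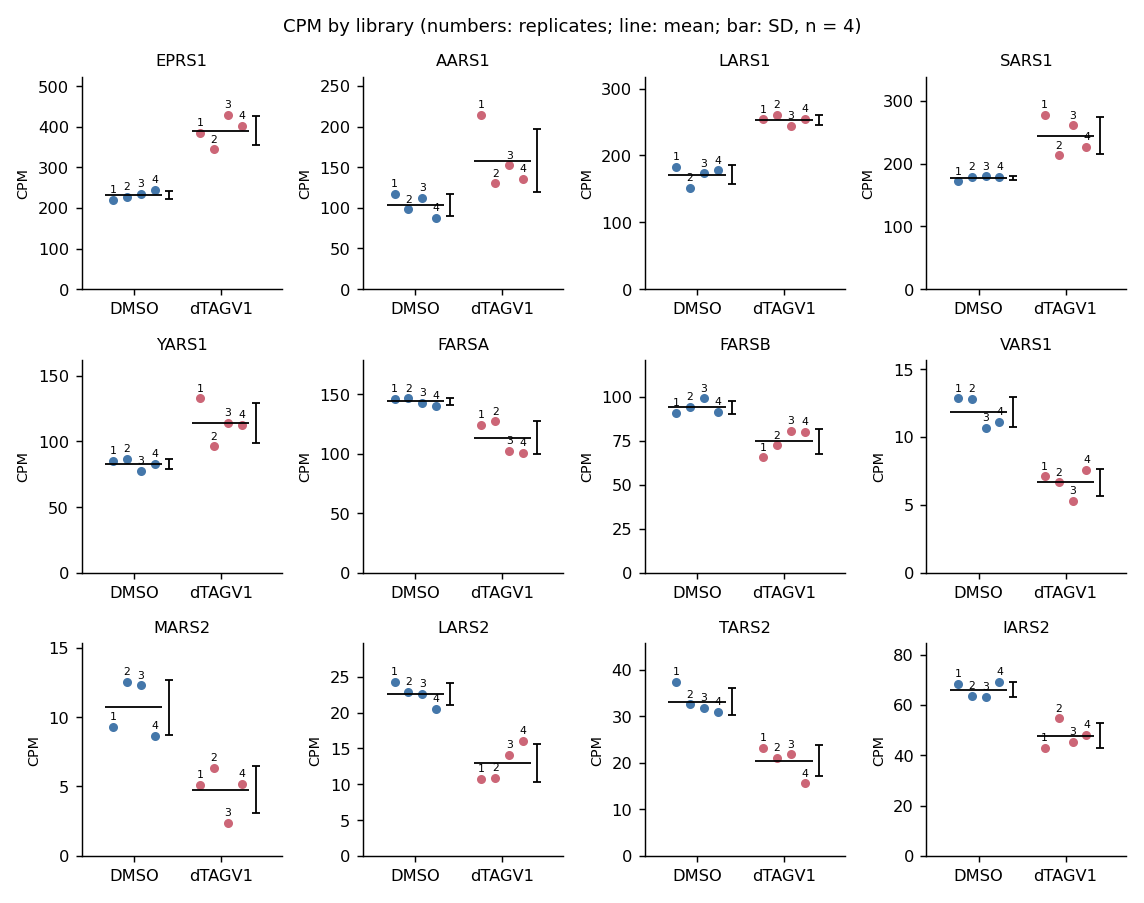
CPM (y axis, from 0) of 12 synthetase genes in each DMSO and dTAGV1 library; numbers are replicates, lines are means and bars are SD (n = 4). The 5 genes from EPRS1 to YARS1 are higher and the 7 from FARSA to IARS2 lower in every dTAGV1 library than in any DMSO library, and dTAGV1 replicate 1 stands apart in AARS1.

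On the falling side were both subunits of the cytosolic phenylalanine enzyme, which assembles from a catalytic alpha chain, FARSA, and a beta chain, FARSB. FARSA (ENSG00000179115; chromosome 19, 12922479 to 12934037, minus strand) lay at 146, 147, 143 and 140.2 CPM with DMSO and 124, 127, 103 and 101 CPM with dTAGV1. The test gave a log2 fold change of -0.35 ± 0.08 (SE; edgeR, Benjamini-Hochberg adjusted p = 0.00108). FARSB (ENSG00000116120; chromosome 2, 222570536 to 222656337, minus strand) was at 90.7, 94.1, 98.98 and 91.5 CPM with DMSO and 65.5, 72.2, 80.4 and 79.9 CPM with dTAGV1. Its log2 fold change was -0.33 ± 0.09 (SE; edgeR, Benjamini-Hochberg adjusted p = 0.0024), a value within 1 standard error of that of FARSA. For both genes every dTAGV1 library was below every DMSO library, although FARSA was lowest in dTAGV1 replicates 3 and 4, where FARSB was highest of the 4. VARS1, the valine enzyme, which associates with elongation factor 1 (ENSG00000204394; chromosome 6, 31777518 to 31795953, minus strand), had 18 to 53 reads a library and lay at 12.8, 12.8, 10.7 and 11.1 CPM with DMSO and 7.09, 6.65, 5.303 and 7.57 CPM with dTAGV1. Groups did not overlap, and its log2 fold change was -0.82 ± 0.20 (SE; edgeR, Benjamini-Hochberg adjusted p = 0.0011). QARS1, the glutamine enzyme (ENSG00000172053; chromosome 3, 49095932 to 49105135, minus strand), was at 174, 152, 159.6 and 156 CPM with DMSO and 138, 118, 148 and 154 CPM with dTAGV1, with overlapping groups. For this gene the log2 fold change was -0.20 ± 0.08 (SE; edgeR, Benjamini-Hochberg adjusted p = 0.0456). The call was lost in 6 of 16 alternatives: DESeq2, and the fits leaving out replicate 1, 3 or 4 of DMSO or replicate 1 or 2 of dTAGV1, with values from -0.22 to -0.14.

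The other 8 cytosolic genes did not pass the test. Among them were the 3 members with the highest mean CPM in the DMSO group. With dTAGV1, EPRS1 was above all 3 in mean CPM, although TARS1 was above it in dTAGV1 replicate 1 and RARS1 in dTAGV1 replicate 2. TARS1, the threonine enzyme, was at 297, 357, 354 and 355 CPM with DMSO and 423, 312, 392 and 356 CPM with dTAGV1, and its log2 fold change was 0.12 ± 0.09 (SE). RARS1, the arginine enzyme of the complex, was at 278, 304, 329 and 353 CPM with DMSO and 322, 373, 350.3 and 339 CPM with dTAGV1, with a log2 fold change of 0.13 ± 0.08 (SE). NARS1, the asparagine enzyme, was at 231, 269.6, 260.4 and 256 CPM with DMSO and 226, 188, 255 and 251 CPM with dTAGV1, with one of -0.14 ± 0.08 (SE). In these 3 genes the groups overlapped, and replicate 2 was the lowest of the dTAGV1 libraries for TARS1 and NARS1 and the highest for RARS1. Log2 fold changes of the lysine, methionine, histidine and tryptophan enzymes were 0.08 for KARS1, 0.12 for MARS1, 0.06 for HARS1 and 0.07 for WARS1, with standard errors of 0.08 to 0.12. NARS1 passed with library-size scaling (-0.22) and without dTAGV1 replicate 4 (-0.21), and its value was -0.07 without dTAGV1 replicate 2. MARS1 passed without dTAGV1 replicate 2 (0.23), and its value was 0.02 without dTAGV1 replicate 3 and 0.05 without dTAGV1 replicate 1. WARS1, which interferon is known to induce, thus differed by less than its standard error.

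CARS1, the cysteine enzyme (ENSG00000110619; chromosome 11, 3000922 to 3057613, minus strand), spread widely across the dTAGV1 libraries. It lay at 81.2, 61.3, 69.1 and 66.8 CPM with DMSO and 147, 77.3, 99.9 and 76.2 CPM with dTAGV1. dTAGV1 replicate 1 stood far above the other 3, and the log2 fold change was 0.52 ± 0.22 (SE; edgeR, Benjamini-Hochberg adjusted p = 0.0719). It passed in 7 of 16 alternatives, including the fits without dTAGV1 replicate 1, 2 or 4, and its log2 fold change ranged over the alternatives from 0.27, without dTAGV1 replicate 1, to 0.62. CARS1 is therefore given by its values and not as a change.

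Among the mitochondrial enzymes 5 genes fell, each without overlap between the groups. MARS2, the methionine enzyme (ENSG00000247626; chromosome 2, 197705369 to 197708387, plus strand), had the lowest fold change, on few reads: its counts were 34, 52, 46 and 35 with DMSO and 18, 21, 8 and 22 with dTAGV1. In CPM these were 9.29, 12.5, 12.3 and 8.65 CPM with DMSO and 5.102, 6.34, 2.36 and 5.203 CPM with dTAGV1, and the log2 fold change was -1.16 ± 0.25 (SE; edgeR, Benjamini-Hochberg adjusted p = 0.000327). Without dTAGV1 replicate 3, its lowest library, the value was -0.96. LARS2, the leucine enzyme (ENSG00000011376; chromosome 3, 45388506 to 45549421, plus strand), lay at 24.3, 22.9, 22.7 and 20.5 CPM with DMSO and 10.8, 10.9, 14.1 and 16.1 CPM with dTAGV1. On the log2 scale, the fold change was -0.79 ± 0.16 (SE; edgeR, Benjamini-Hochberg adjusted p = 0.000164), against 0.57 for the cytosolic leucine gene. TARS2, the threonine enzyme (ENSG00000143374; chromosome 1, 150487364 to 150507609, plus strand), was at 37.4, 32.6, 31.8 and 30.9 CPM with DMSO and 23.2, 21.1, 21.8 and 15.6 CPM with dTAGV1. The test gave a log2 fold change of -0.71 ± 0.14 (SE; edgeR, Benjamini-Hochberg adjusted p = 0.00011). IARS2, the isoleucine enzyme (ENSG00000067704; chromosome 1, 220094102 to 220148041, plus strand), is the second most abundant mitochondrial member and was at 68.3, 63.7, 63.2 and 69.2 CPM with DMSO and 43.1, 54.7, 45.4 and 48.01 CPM with dTAGV1, a log2 fold change of -0.47 ± 0.10 (SE; edgeR, Benjamini-Hochberg adjusted p = 0.000236). EPRS1 lies nearby on chromosome 1, on the other strand, and rose. CARS2, the cysteine enzyme (ENSG00000134905; chromosome 13, 110641412 to 110713603, minus strand), was at 27.3, 27.3, 22.9 and 24.2 CPM with DMSO and 17.9, 17.2, 16.8 and 19.9 CPM with dTAGV1. Its log2 fold change was -0.50 ± 0.14 (SE; edgeR, Benjamini-Hochberg adjusted p = 0.00321).

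In the other direction, WARS2, HARS2, EARS2 and RARS2 were called higher. WARS2, the tryptophan enzyme (ENSG00000116874; chromosome 1, 119031216 to 119140671, minus strand), was at 9.56, 8.68, 12.01 and 7.91 CPM with DMSO and 11.3, 12.1, 14.1 and 21.5 CPM with dTAGV1. dTAGV1 replicate 4 was the highest, the groups overlapped, and the log2 fold change was 0.65 ± 0.21 (SE; edgeR, Benjamini-Hochberg adjusted p = 0.0103). Without dTAGV1 replicate 4 it was 0.38 and did not pass (edgeR, Benjamini-Hochberg adjusted p = 0.129, and from 0.00418 in the other alternatives). HARS2, the histidine enzyme (ENSG00000112855; chromosome 5, 140691426 to 140699318, plus strand), lay at 17.5, 19.5, 18.7 and 19.5 CPM with DMSO and 18.1, 23.6, 25.9 and 27.9 CPM with dTAGV1. The groups overlapped, and its log2 fold change was 0.35 ± 0.15 (SE; edgeR, Benjamini-Hochberg adjusted p = 0.0477). EARS2, the glutamate enzyme (ENSG00000103356; chromosome 16, 23522014 to 23557731, minus strand), was at 28.96, 24.1, 25.3 and 24.7 CPM with DMSO and 32.6, 31.7, 30.3 and 31.9 CPM with dTAGV1. Every dTAGV1 library was above every DMSO library, with a log2 fold change of 0.30 ± 0.12 (SE; edgeR, Benjamini-Hochberg adjusted p = 0.0379). RARS2, the arginine enzyme and the most abundant mitochondrial member (ENSG00000146282; chromosome 6, 87514378 to 87590003, minus strand), was at 91.8, 80.6, 78.4 and 84.3 CPM with DMSO and 90.98, 103, 94.6 and 98.1 CPM with dTAGV1, with overlap. For this gene the log2 fold change was 0.21 ± 0.08 (SE; edgeR, Benjamini-Hochberg adjusted p = 0.0398). The calls of HARS2, EARS2 and RARS2 were lost in 13 of 15, 11 of 16 and 11 of 16 alternatives, including scaling by library size, DESeq2, and the fits that left out replicate 2, 3 or 4 of either group. HARS2 also lost it without DMSO replicate 1, and EARS2 without dTAGV1 replicate 1. DESeq2 called 1 mitochondrial gene higher and 5 lower.

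The alanine, phenylalanine, asparagine, proline and tyrosine enzymes of mitochondria did not pass, at log2 fold changes of 0.27 for AARS2, -0.33 for FARS2, -0.08 for NARS2, -0.07 for PARS2 and 0.04 for YARS2 and standard errors of 0.15 to 0.19. This does not show that they were unchanged. SARS2 and VARS2, the serine and valine enzymes, had 0 counts in all 8 libraries, in the sense count and irrespective of strand, where a count of 3 would be 0.7095 to 0.906 CPM (counting error only). In GENCODE 29, SARS2 shares 46.2% of its exonic bases with a gene on the same strand (ENSG00000269547), and VARS2 shares 22% with GTF2H4, and these partners also stood at 0. A read that fits both genes on the same strand is given to neither in this layout, the part of this in the values was not tested, and the genes are not called silent here.

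The kit yields about 1 read per transcript end, so CPM were set side by side between genes without division by length. Levels also depend on how many reads of a gene were given to it, so such comparisons are approximate. Between 56.7% and 62.8% of reads were given to no gene, and SARS2 and VARS2 add 0 to the mitochondrial sum. On that scale cytosolic genes had a median of 104 CPM with DMSO, from 11.9 for VARS1 to 341 for TARS1, and the 14 tested mitochondrial ones a median of 19.4, from 9.54 for WARS2 to 83.8 for RARS2. Summed over the 19 cytosolic genes, the level was 2535, 2611, 2695 and 2674 CPM with DMSO and 3268, 2837, 3153 and 2991 CPM with dTAGV1. The groups did not overlap in this sum. The 16 mitochondrial genes summed to 382, 373, 355 and 363 CPM with DMSO and 323, 357, 331 and 359 CPM with dTAGV1, where dTAGV1 replicates 2 and 4 lay within the DMSO range. The cytosolic sum was thus 6.64, 7.003, 7.596 and 7.37 times the mitochondrial one with DMSO and 10.1, 7.95, 9.53 and 8.34 times with dTAGV1, again without overlap. EPRS1 alone carried part of this, but without it the cytosolic sum still ranged from 2492 to 2883 CPM with dTAGV1 and from 2316 to 2461 CPM with DMSO. Without TMM scaling the cytosolic sum was 26.2 to 27.3 per 10000 counts with DMSO and 27.2 to 31.6 with dTAGV1, where dTAGV1 replicate 2 came down to the DMSO range. The mitochondrial sum was then 3.56 to 3.94 per 10000 counts with DMSO and 3.12 to 3.53 with dTAGV1, without overlap. Which of the 2 sums kept its groups apart thus depended on the scaling, while their ratio does not depend on it. These sums weight abundant genes and are given as a description, with no test.

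The enzymes for the same amino acid were also set against each other within a library. The ratio of LARS1 to LARS2 ran from 6.6 to 8.65 with DMSO and from 15.8 to 23.97 with dTAGV1, a difference of 1.39 on the log2 scale. In this pair the cytosolic gene rose and the mitochondrial gene fell. The IARS1 to IARS2 ratio, the only one in which the mitochondrial gene had more CPM, ran from 0.184 to 0.218 with DMSO and from 0.261 to 0.5197 with dTAGV1. For CARS1 to CARS2 it was from 2.25 to 3.01 with DMSO and from 3.83 to 8.24 with dTAGV1, and for TARS1 to TARS2 from 7.93 to 11.5 with DMSO and from 14.8 to 22.8 with dTAGV1. In the threonine pair the mitochondrial gene fell while the cytosolic one did not pass the test. YARS1 to YARS2 ran from 3.86 to 4.51 with DMSO and from 5.02 to 6.93 with dTAGV1, with the cytosolic gene rising. EPRS1 to EARS2 ran from 7.58 to 9.86 with DMSO and from 10.9 to 14.1 with dTAGV1. EPRS1 to PARS2 ran from 17 to 23.6 with DMSO and from 26.5 to 46.8 with dTAGV1. These 7 of 14 ratios did not overlap between the groups and were all higher with dTAGV1, and 2 of them share EPRS1. Of single genes, 50.9% did not overlap in CPM, in either direction, which is another measure. The share among ratios of other pairs of genes was not computed, so whether this count stands apart is not known. The ratio of MARS1 to MARS2 differed by 1.34 on the log2 scale, but dTAGV1 replicate 2 overlapped the DMSO range.

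In the other pairs the ratio overlapped as well. The alanine pair differed by 0.31 on the log2 scale, the histidine pair by -0.27 and the tryptophan pair by -0.52. For phenylalanine (FARSA to FARS2), asparagine and arginine the differences were -0.04, -0.08 and -0.07. HARS1 and HARS2 lie head to head and overlap at their 5′ ends on opposite strands of chromosome 5.

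**Figure D3:**
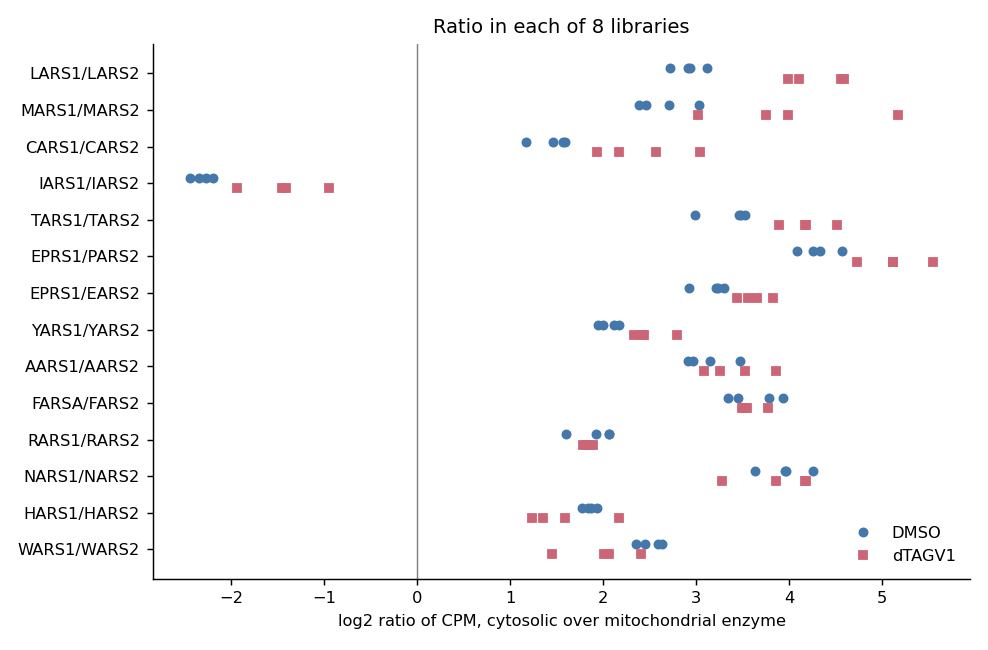
Log2 ratio of CPM of the cytosolic over the mitochondrial enzyme (x axis) for 14 pairs of genes in each DMSO (circles) and dTAGV1 library (squares), ordered by the difference between group means. Squares lie right of all circles for LARS, CARS, IARS, TARS, YARS and both EPRS1 pairs, and IARS1 to IARS2 is the one pair below 0.

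The 7 members known to sit in the multisynthetase complex did not all move the same way: EPRS1, LARS1 and IARS1 were higher, QARS1 lower, and KARS1, MARS1 and RARS1 did not pass. That is 57.1% called, near the 57.9% of all genes. The 3 scaffolds of the complex all passed, in different directions. AIMP1 lay at 83.3, 86.3, 92.8 and 98.7 CPM with DMSO and 120.5, 117, 139.9 and 142 CPM with dTAGV1. On the log2 scale, the fold change was 0.53 ± 0.09 (SE; edgeR, Benjamini-Hochberg adjusted p = 1.32e-05). AIMP2, the scaffold that binds most of the complex, was at 42.4, 51.1, 45.1 and 45.01 CPM with DMSO and 19.3, 20.5, 25.6 and 31.5 CPM with dTAGV1, and its log2 fold change was -0.91 ± 0.14 (SE; edgeR, Benjamini-Hochberg adjusted p = 3.02e-06). EEF1E1, the smallest scaffold, lay at 54.4, 51.9, 50.4 and 52.7 CPM with DMSO and 25.2, 41.99, 24.7 and 33.6 CPM with dTAGV1. The test gave a log2 fold change of -0.74 ± 0.13 (SE; edgeR, Benjamini-Hochberg adjusted p = 3.85e-05). Counted irrespective of strand, AIMP2 held a mean of 8.5 counts in place of 134 and was not tested, so that 1 of the 2 lower calls was lost. Groups did not overlap for any of the 3, with AIMP1 higher and AIMP2 and EEF1E1 lower in every dTAGV1 library. Of all genes, 50.9% did not overlap. Of the 9 cytosolic members of catalytic class I, 3 were higher and 2 lower, and the same numbers held for the 9 of class II, which differ in the fold of the active site (EPRS1 holds one of each and was left out). In each class 55.6% were called, near the 57.9% of all genes, at medians of 0.13 and 0.08.

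Partners of the synthetases were taken from lists drawn up with the members. Of 10 genes for indirect aminoacylation, proofreading and related steps, 1 was higher (TARS3) and 3 lower (GATC, DTD1 and DTD2), at a list median of -0.14. That is 40% called, against 57.9% of all genes. The amidotransferase that completes mitochondrial glutamine tRNA has 3 subunits: GATC fell from 64.3 ± 2.59 to 44.2 ± 4.54 CPM (SD, n = 4 each), while GATB and QRSL1 had log2 fold changes of -0.47 and -0.02 and did not pass. MTFMT, which formylates mitochondrial initiator tRNA charged by MARS2, had one of -0.25 and did not pass (edgeR, Benjamini-Hochberg adjusted p = 0.0769). DTD2, which strips wrongly charged amino acids from tRNA, fell from 15.5 ± 1.57 to 6.21 ± 1.73 CPM (SD, n = 4 each; log2 fold change -1.29). TARS3, a threonine enzyme related to TARS1, rose by a log2 fold change of 0.69, from 10.4 ± 0.964 to 16.8 ± 1.19 CPM (SD, n = 4 each).

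Of 5 tested cytosolic elongation factors, EEF1A1, EEF1D and EEF2 were higher and the other 2 did not pass. That is 60% called, near the 57.9% of all genes. EEF2, which moves the ribosome along, had a log2 fold change of 0.37 ± 0.06 (SE). Among 8 tested mitochondrial translation factors MTIF2, MTRF1 and MTRF1L were higher and GFM1, GFM2 and MRRF lower. That is 75% of a short list, against 57.9% of all genes. The release factor MTRF1 had the highest log2 fold change (0.64) and the elongation factor GFM1 the lowest (-0.50). The 21 tested genes of tRNA maturation, modification and export had 4 higher and 10 lower, 66.7% of the list against 57.9% of all genes, with a median of -0.29. ELP3, the catalytic subunit of Elongator, rose from 53.2 ± 4.06 to 142 ± 16.8 CPM, and TRMT5, a tRNA methyltransferase acting beside the anticodon, fell from 123 ± 20.9 to 53.9 ± 6.66 CPM (SD, n = 4 each).

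Genes of the ATF4 pathway moved in both directions as well. Of 22 tested genes of the amino acid response, 8 were higher (CHAC1, ATF3, DDIT3, ALDH18A1, SLC38A2, PSAT1, CEBPB and CEBPG). Another 5 were lower (ATF5, PSPH, SHMT2, MTHFD2 and SLC1A4), and the list median was -0.01. That is 59.1% called, near the 57.9% of all genes. CHAC1, which degrades glutathione, rose most, from 6.62 ± 2.19 to 18.5 ± 8.86 CPM, and ATF5 fell most, from 69.96 ± 8.26 to 28.5 ± 1.42 CPM (SD, n = 4 each). ATF4 itself was at 213, 219, 225 and 188 CPM with DMSO and 295, 191, 279 and 229.6 CPM with dTAGV1, and its log2 fold change was 0.24 ± 0.11 (SE; edgeR, Benjamini-Hochberg adjusted p = 0.0796). LARS1 and YARS1, both called higher, and VARS1, called lower, have no entry in the promoter table. Among the other 16 cytosolic members, those with the promoter match counted 3 higher (AARS1, GARS1 and IARS1) and 4 that did not pass. The 9 without it counted 2 higher (EPRS1 and SARS1) and 3 lower (FARSA, FARSB and QARS1). The called shares were 42.9% and 55.6%, both below the 57.9% of all genes. Their medians were 0.36 and 0.07, a description of few genes with no test.

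The 4 dTAGV1 libraries also differed among themselves in these genes. dTAGV1 replicate 1 was the highest of the 4 for 5 of the 7 genes with the promoter match (AARS1, CARS1, GARS1, IARS1 and TARS1), and replicate 2 the lowest for 5 of the 7. Among all 19 cytosolic members, which include these 7, replicate 1 was highest for 9 (47.4%) and replicate 2 lowest for 10 (52.6%). Over all 12618 tested genes, replicate 1 was highest for 27.7% and replicate 2 lowest for 25.4%. In the amino acid response list, replicate 1 was highest for 12 and replicate 2 lowest for 13 of 22 genes. TRIB3, a target of ATF4, was at 23.5, 23.6, 20.01 and 21.3 CPM with DMSO and 47.3, 18.1, 27.99 and 25.8 CPM with dTAGV1, DDIT3 at 63.2, 35.9, 46.5 and 40.4 CPM and CHAC1 at 30.3, 11.2, 20.3 and 12.3 CPM in dTAGV1 replicates 1 to 4. The mitochondrial members went another way, with replicate 1 lowest and replicate 2 highest for 7 of 14 each. Over all tested genes these shares were 27.3% and 25.5%. These genes share their libraries, so the counts are a description of 2 libraries and not a test, and what set these libraries apart was not tested.

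**Figure D4:**
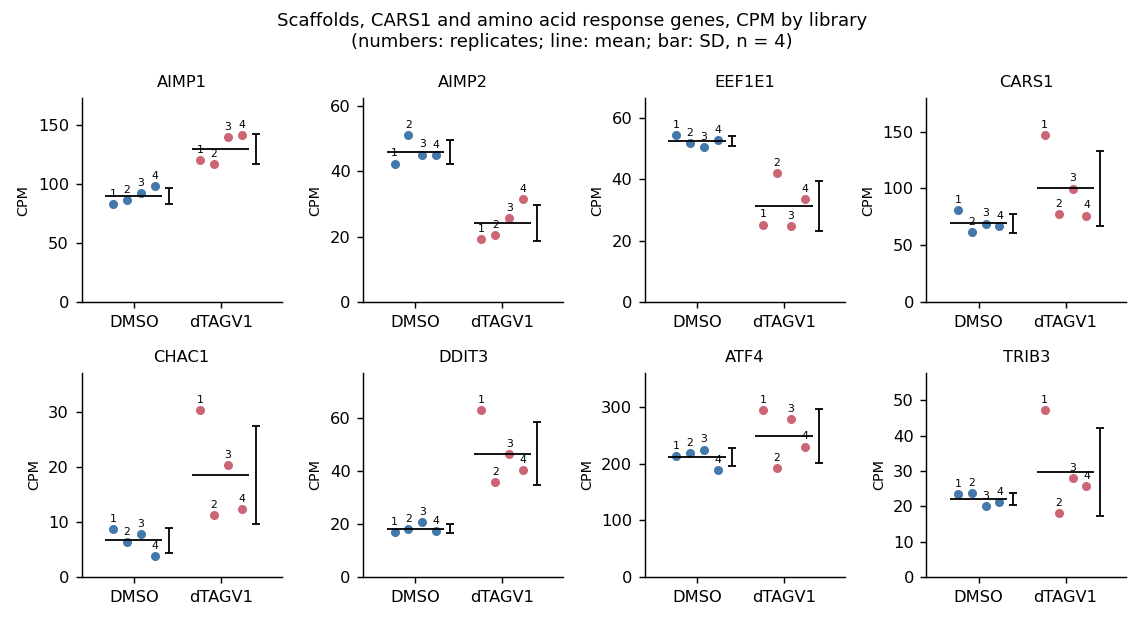
CPM (y axis, from 0) of the 3 scaffold genes, CARS1 and 4 genes of the amino acid response in each library; numbers are replicates, lines are means and bars are SD (n = 4). AIMP1 is higher and AIMP2 and EEF1E1 lower in every dTAGV1 library, while CARS1, CHAC1, DDIT3, ATF4 and TRIB3 are each highest in dTAGV1 replicate 1 and lowest or nearly lowest of the dTAGV1 libraries in replicate 2.

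Counts on the strand opposite to some members also differed, at loci with or without an annotated gene on that strand. Of 3324 genes with enough opposite-strand reads, 48.4% passed the same edgeR test, and 3 members were among those tested, all of which passed. Opposite to HARS1, where WDR55 and HARS2 are annotated, counts were 15, 14, 12 and 17 with DMSO and 2, 1, 2 and 2 with dTAGV1. That is a log2 fold change of -2.99 ± 0.46 (SE; edgeR, Benjamini-Hochberg adjusted p = 2.25e-06), and WDR55 itself fell by 0.82 on the log2 scale, while HARS2 was called higher (0.35). Opposite to MARS1 they were 41, 48, 58 and 51 with DMSO and 148, 84, 104 and 106 with dTAGV1 (log2 fold change 1.13). There DDIT3, the stress factor CHOP, is annotated, whose own log2 fold change was 1.35. Opposite to RARS2 they were 7, 10, 2 and 4 with DMSO and 18, 16, 14 and 19 with dTAGV1 (log2 fold change 1.5), on few reads. No gene is annotated opposite to RARS2 in GENCODE 29. Its neighbours ORC3 and SLC35A1 had log2 fold changes of 0.27, which did not pass, and -1.57, which did. When reads were counted irrespective of strand, mean counts fell from 261 to 138 for HARS1, from 259 to 116 for MARS1, from 1337 to 598 for TARS1 and from 208 to 88.0 for WARS1, and WARS1 then passed with a log2 fold change of 0.43 (edgeR, Benjamini-Hochberg adjusted p = 0.0143, up to 0.987 over the alternatives). Values before these are sense counts, except where counts irrespective of strand are named or the alternatives, which include them, are quoted.

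CFIm is known to bind UGUA near poly(A) sites, and the annotated 3′ ends of the members were searched for it. In the last 100 bases of the longest GENCODE 29 coding transcript, read as TGTA on the sense strand, at least 1 match was present for 9 of 19 cytosolic members (47.4%) and 4 of 14 tested mitochondrial ones (28.6%), against 56.4% of 10641 tested coding genes. A poly(A) hexamer (AATAAA or ATTAAA) stood in the last 40 bases for 14 and 9 of them, against 77.5% of those genes. Of the 6 members with the largest absolute changes, EPRS1 and LARS2 had 1 match each, and MARS2, VARS1, TARS2 and WARS2 had 0. Which poly(A) site was used in these cells was not analysed here, since the counts are per gene.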

How the data were processed

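RNA of 8 HCT116 libraries was sequenced from 3′ ends with the Lexogen QuantSeq forward kit, per the labels' protocols. The deposited values are raw counts of reads per gene, in the layout of STAR's per-gene files, as the rows of totals in them show. FastQC, fastp, STAR, HTSeq and DESeq2 and the build GRCh38 are named in the submitters' processing notes, without versions or roles; annotation and removal of PCR copies are not given in the sources used here, so counting error alone understates the error.

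Sense-strand counts were used. Between 56.7% and 62.8% of reads fell in the 4 totals of reads given to no gene and stayed out. Gene symbols were looked up by Ensembl ID (61481 of 78932 genes), loci from GENCODE 29 on GRCh38 (57356), promoters from RefSeq on GRCh38.p14 (30 of 35 members).

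All genes were fitted with edgeR 4.0.16 in R 4.3.3 (filterByExpr, TMM, robust quasi-likelihood F test), with Benjamini-Hochberg adjustment over 12618 genes and a threshold of 0.05. The standard error is the absolute log2 fold change divided by the square root of F. Log2 fold changes compare dTAGV1 with DMSO. The method was tested on simulated data. There far fewer genes were changed than were called here, so it does not show the error rates in these data.

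Alternatives were DESeq2 1.42.0, limma-voom (limma 3.58.1), RLE and library-size scaling, no filter, a mean of at least 100 counts, counts irrespective of strand, a replicate term and leaving out each library. Members, lists and the naming rule (all members, with values by library for the highest-expressed and for up to 6 called genes a class and direction; of each partner list the called extremes with a mean of at least 10 CPM, plus all scaffolds and amidotransferase subunits) were chosen with earlier results of these data known. TRIB3, ATF4, DDIT3, WDR55 and the list genes given in brackets or by name alone were named after their values were seen.

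Pairs of libraries within a group differed by more than sampling noise (chi-square over degrees of freedom 1.82 to 5.09). All 8 were kept as replicates, although this spread does not show that they came from separate cultures. Figures were drawn with matplotlib 3.10.9.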

Additional observations from a re-analysis of the deposited data

Results flagged for a closer look

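In 104 groups of 4 libraries examined, 2 values stood far from the other 3, and chance gives about 1 in 20 groups. TARS1 in DMSO replicate 1 was at 297 CPM, with the other DMSO libraries at 354 to 357 CPM. ELP3 in dTAGV1 replicate 1 was at 117 CPM, with the other dTAGV1 libraries at 148.5 to 153.8 CPM.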

How the results depend on the processing

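Of 516 alternative values for 33 members, 450 kept their side of the threshold, 55 lost the call, 11 gained one and 0 turned. Of 20 called members, 14 kept their call in every alternative in which they were tested; the others were IARS1, QARS1, EARS2, HARS2, RARS2 and WARS2. The number of mitochondrial enzymes called higher, 4 in the report, was 1 with DESeq2, library-size scaling, no filter or a mean of at least 100 counts, 2 with RLE scaling or counts irrespective of strand, and 0 to 3 when each library was left out. The cause was not tested, except that the mean of at least 100 counts tests fewer genes; it also called 2 mitochondrial enzymes lower and 4120 of all genes. Leaving out each library gave 6861 to 7232 genes called in all, 6 to 8 cytosolic enzymes higher and 3 to 5 lower, and 5 mitochondrial ones lower each time. Scaling by library size shifted all log2 fold changes by a median of -0.07. Counts irrespective of strand left EEF1E1 as the 1 scaffold called lower, as AIMP2 was not tested. The replicate numbers are not said to mark a shared culture, and deviations of same-numbered libraries correlated at 0.131, -0.0176, 0.0232 and 0.0340. With the replicate block, 7434 genes were called, and among members IARS1 lost its call and CARS1 gained one. Depth limits genes near 10 CPM, where MARS2 and VARS1 had 8 to 53 reads a library.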
